A study of Rattus norvegicus with 18 samples.

Results

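Nr4a1, Nr4a2 and Nr4a3 make up the NR4A family of orphan nuclear receptors. They were taken as the 3 rows of the count tables that carry their Ensembl identifiers, ENSRNOG00000007607 for Nr4a1, ENSRNOG00000005600 for Nr4a2 and ENSRNOG00000005964 for Nr4a3, out of 32662 gene rows. The tables give identifiers only, and these 3 pairings of identifier and name were taken as given, since the reference table used here matched 0 of the identifiers. All 3 genes passed the filter on low counts in every comparison.

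The rats were adults of the outbred Long-Evans strain. Naive rats stayed in the home cage, and the others underwent inhibitory avoidance training, in which a rat learns to keep out of a place where it was shocked, and were killed 1 h or 6 d afterwards. Punches of dorsal hippocampus (dHC) and of prelimbic cortex (PL), a medial prefrontal area, were sequenced as polyadenylated RNA. The 6 groups were dHC naive, dHC 1 h, dHC 6 d, PL naive, PL 1 h and PL 6 d, with 3 pools of 5 rats in each and 1 library per pool, 18 libraries in all. Before pooling, induction of the immediate early gene c-Fos had been checked in the RNA of each rat, and the labels do not say whether any rat was left out on that ground. A pool averages over its rats, so the spread given here is between pools, and the labels do not say whether the dHC and PL pools of a number came from the same rats. Shock and handling without learning were not separated from training, because every untrained rat remained in its home cage. Libraries held 7463875 to 9215695 gene counts, and every Nr4a value below rests on 81 to 1378 counts.

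As background, NR4A receptors differ from most nuclear receptors in that bulky side chains fill the pocket where a ligand would bind, so their activity depends largely on how much of each is made. Their genes are immediate early genes: in neurons, calcium and cyclic AMP signals switch them on within minutes through factors such as CREB. As monomers they bind a DNA element called the NBRE, and Nr4a1 and Nr4a2 can also pair with the retinoid X receptor. In mouse hippocampus, learning raises their transcripts, and blocking the family impairs long-term memory. Nr4a1, also called Nur77 or NGFI-B, was found as a gene induced by nerve growth factor in rat cells. Nr4a2, or Nurr1, is needed in mouse for midbrain dopamine neurons to form and marks cells of the claustrum and of deep cortical layers. Nr4a3, or NOR1, is the third member.

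Sequence around the annotated gene starts is shown with the core of the cyclic AMP response element marked, the element that CREB binds. No measurement here bears on CREB. RefSeq windows from 250 bases before to 50 bases after the gene start, on assembly GRCr8, were matched by symbol for 2 of the 3 genes, Nr4a1 on chr7:134259888-134260187, plus strand, and Nr4a2 on chr3:62104838-62105137, minus strand. Capitals mark TGACG, the core of that element, read on either strand, so that CGTCA is the same site on the opposite strand.
Nr4a1: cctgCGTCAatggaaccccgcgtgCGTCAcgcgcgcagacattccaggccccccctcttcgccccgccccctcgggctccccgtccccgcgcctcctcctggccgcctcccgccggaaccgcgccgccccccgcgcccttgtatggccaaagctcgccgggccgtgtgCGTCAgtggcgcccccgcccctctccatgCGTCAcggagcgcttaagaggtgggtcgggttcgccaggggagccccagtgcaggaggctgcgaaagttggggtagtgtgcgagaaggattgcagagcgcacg
Nr4a2: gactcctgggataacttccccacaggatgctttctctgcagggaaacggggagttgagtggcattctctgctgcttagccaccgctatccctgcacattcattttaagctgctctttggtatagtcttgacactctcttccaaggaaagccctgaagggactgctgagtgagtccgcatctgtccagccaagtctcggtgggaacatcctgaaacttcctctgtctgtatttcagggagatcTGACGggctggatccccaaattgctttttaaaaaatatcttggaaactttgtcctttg

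The Nr4a1 window held 4 such cores, with their first bases 246, 226, 82 and 53 bases before the start, all on the strand opposite to the gene. The Nr4a2 window held 1, on the gene's own strand, 8 bases before the start. At least 1 core was present in 21.2% of the 33469 RefSeq windows of the same length, and at least 4 were present in 79 of them (0.236%). The full element TGACGTCA, which contains the core on both strands and was present in 1.83% of windows, was in neither. Neither window held an exact match to the NBRE, written AAAGGTCA (1.43% of windows), or to TATAAA (14.2%). Nor did either match the CArG box of serum response factor, searched as CC, 6 letters A or T, and GG (1.64%), or the MEF2 site (3.29%). Near matches that differ by 1 letter were not counted. The Nr4a1 window was 72.3% G and C and the Nr4a2 window 48.7%, where the median window had 51.7%. The shares above are over all windows, and windows of like G and C content were not compared. For both genes the start used lies inside the annotated gene span, so these windows are not upstream of the whole gene. The matches describe the printed letters.

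Levels are given in CPM, the reads of a gene scaled to a common library size, with edgeR's TMM factors over the 18 libraries. They compare 1 gene between samples and not 1 gene with another, since they are not divided by gene length. In dHC, Nr4a1 stood at 35.8, 44.7 and 45.4 CPM in naive pools 1 to 3, at 89.9, 71.8 and 92.9 CPM at 1 h, and at 41.2, 41.0 and 43.4 CPM at 6 d. In PL, Nr4a1 stood at 74.7, 69.3 and 66.1 CPM in naive pools, at 156, 150.4 and 157 CPM at 1 h, and at 68.0, 62.2 and 62.9 CPM at 6 d. In both regions every 1 h pool lay above all naive and all 6 d pools, while the naive and 6 d pools overlapped.

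Nr4a2 had the lowest counts of the 3 genes and the widest gap between the regions. In dHC it stood at 31.8, 34.7 and 33.2 CPM in naive pools, at 61.7, 49.6 and 67.3 CPM at 1 h, and at 36.6, 36.2 and 35.0 CPM at 6 d. In PL it stood at 10.1, 9.01 and 12.2 CPM in naive pools, at 25.1, 24.5 and 28.0 CPM at 1 h, and at 11.2, 12.4 and 10.2 CPM at 6 d. The 1 h pools were again the highest of their region, yet every PL pool at 1 h lay below every naive dHC pool. The share of all genes with that order was not computed. Between naive rats, 26.9% of genes had all dHC pools above all PL pools.

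Nr4a3 in dHC stood at 70.0, 81.3 and 76.4 CPM in naive pools, at 106, 103 and 106 CPM at 1 h, and at 69.6, 88.2 and 84.7 CPM at 6 d. In PL it stood at 55.7, 45.3 and 42.0 CPM in naive pools, at 89.7, 84.0 and 96.7 CPM at 1 h, and at 50.4, 42.8 and 40.2 CPM at 6 d. The 1 h pools were once more above all other pools of their region. Among the 1 h pools, pool 2 was the lowest for each of the 3 genes in dHC and in PL. Among the naive dHC pools, pool 1 was the lowest for each. The 3 genes of 1 library are not separate cases, and the share of all genes with such an order was not computed.

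**Figure D1:**
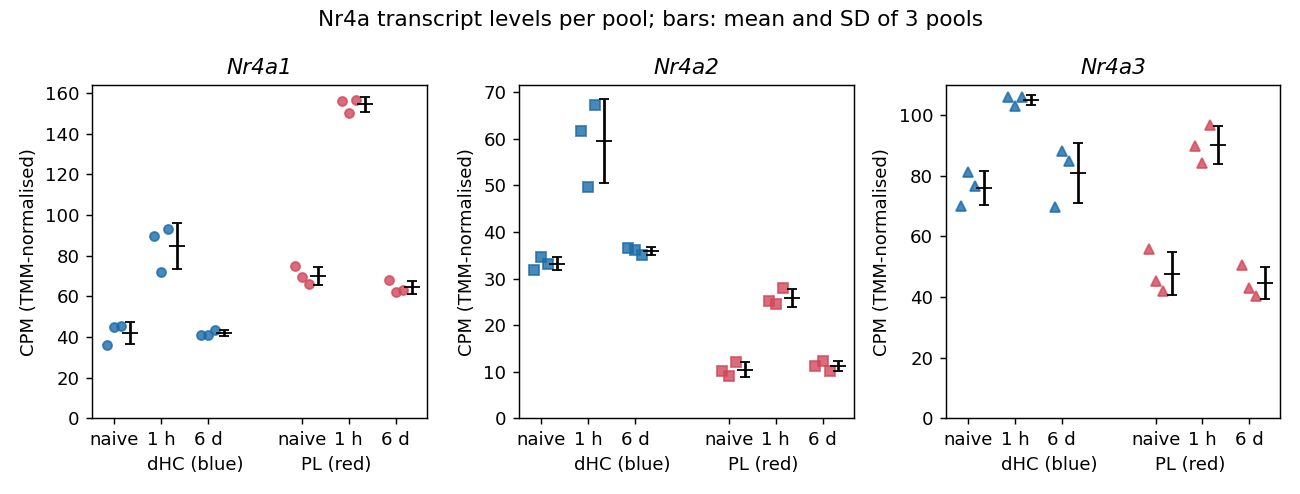
Normalised transcript level (CPM) of Nr4a1, Nr4a2 and Nr4a3 in each pool, in dHC (blue) and PL (red), for naive rats and rats killed 1 h or 6 d after training; points are the 3 pools in order, and the bar beside them is the mean with its SD. The 1 h pools are above all naive and 6 d pools of their region in every panel, Nr4a1 reaches 150.4 to 157 CPM in PL at 1 h, and Nr4a2 stays at or below 28.0 CPM in PL.

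The first comparison asked what had changed 1 h after training. All 3 genes were higher than in naive rats in dHC and in PL. In dHC, Nr4a1 rose 2.02-fold, Nr4a2 1.79-fold and Nr4a3 1.38-fold, and in PL the rises were 2.21-fold for Nr4a1, 2.50-fold for Nr4a2 and 1.90-fold for Nr4a3. Genes are referred to as called where edgeR's quasi-likelihood F test gave a Benjamini-Hochberg adjusted p under 0.05 over all genes tested. In dHC, 3 of the 3 genes were called higher, where 0.217% of 14305 genes were, and in PL 3 of 3, where 0.782% of 14318 genes were. Pools of both groups did not overlap for 3 of 3 genes in either region, whereas 9.37% of genes in dHC and 9.74% in PL had all 1 h pools above all naive pools. On the log2 scale the median change was 0.84 in dHC and 1.15 in PL for the 3 genes, beside −0.00227 and 0.000175 over all genes tested.

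Nr4a1 averaged 84.9 ± 11.5 CPM in dHC at 1 h and 42.0 ± 5.32 CPM in naive dHC (SD, n = 3 each), which is 1.02 on the log2 scale (SE 0.10, edgeR adjusted p = 1.37e-05). By p it ranked 3 among all genes tested in dHC. In PL it averaged 154.4 ± 3.50 CPM at 1 h and 70.1 ± 4.34 CPM in naive rats, or 1.15 on the log2 scale (SE 0.07, edgeR adjusted p = 6.47e-11), and ranked 6 by p. Its pools were tightest in PL at 1 h, with an SD of 2.27% of the mean, against 13.5% in dHC at 1 h.

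Nr4a2 averaged 59.5 ± 9.06 CPM in dHC at 1 h and 33.2 ± 1.43 CPM in naive dHC, or 0.84 as a log2 change (SE 0.10, edgeR adjusted p = 0.000135). In PL it averaged 25.9 ± 1.91 CPM at 1 h and 10.4 ± 1.61 CPM in naive rats, or 1.32 as a log2 change (SE 0.13, edgeR adjusted p = 5.52e-07). Nr4a2 had the largest fold change of the family in PL and ranked 17 from the top by log2 change among 14318 genes there, against 31 among 14305 in dHC. By the same measure Nr4a1 ranked 28 in PL and 10 in dHC, and Nr4a3 ranked 55 in PL and 272 in dHC.

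Nr4a3 averaged 104.9 ± 1.60 CPM in dHC at 1 h and 75.9 ± 5.66 CPM in naive dHC, a rise of 0.47 in log2 units (SE 0.08, edgeR adjusted p = 0.00968). Leaving out 1 h pool 1 (edgeR adjusted p = 0.0738), 1 h pool 3 (adjusted p = 0.0844) or naive pool 1 (adjusted p = 0.131) ended this call. The 17 alternatives gave adjusted p between 2.11e-07 and 0.131, and log2 changes between 0.41 and 0.52. In PL Nr4a3 averaged 90.2 ± 6.33 CPM at 1 h and 47.7 ± 7.13 CPM in naive rats, a rise of 0.93 in log2 units (SE 0.09, edgeR adjusted p = 1.56e-06). All dHC libraries at 1 h were also deeper than all naive dHC libraries, with 8914752 to 9136114 gene counts at 1 h and 7687831 to 8874826 in naive dHC. In PL the ranges overlapped, with 8509697 to 8887687 at 1 h and 8145006 to 9215695 in naive rats. The part of depth in the dHC result was not tested beyond the scaling to library size. In tissue punches, more RNA per cell and more of the cells that hold a transcript cannot be told apart.

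**Figure D2:**
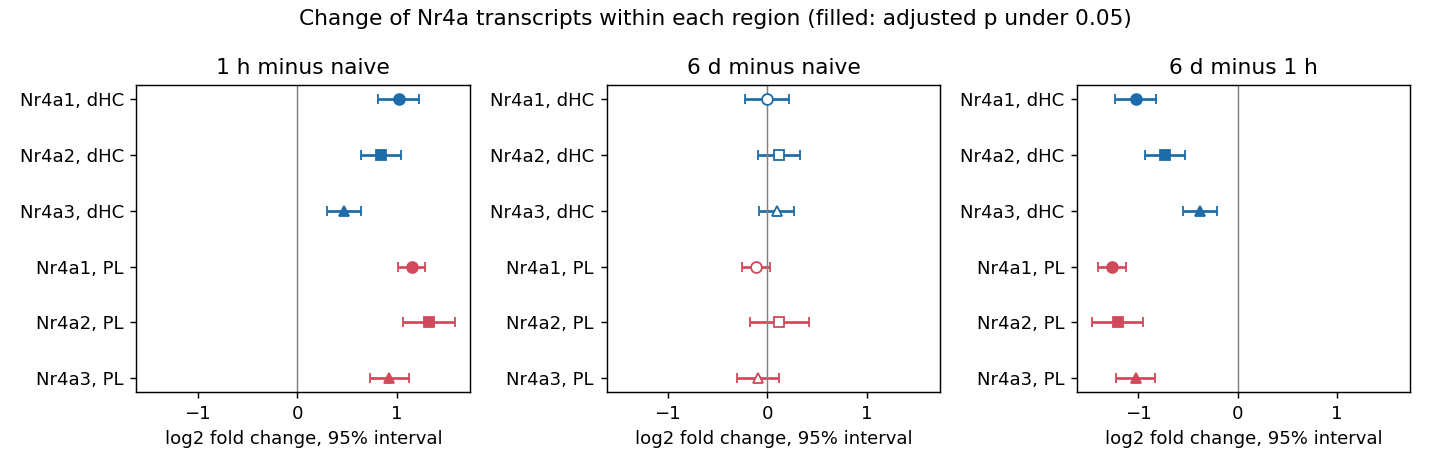
Log2 fold change of each Nr4a gene with its 95% interval, for 1 h minus naive, 6 d minus naive and 6 d minus 1 h, in dHC (blue) and PL (red); filled symbols had an adjusted p under 0.05. The 1 h changes lie between 0.47 and 1.32, all intervals for 6 d minus naive include 0, and the 6 d minus 1 h changes lie between −1.26 and −0.37.

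Genes called higher at 1 h in both regions numbered 15 of 13905 tested in both (0.108%), and all 3 family members were among them. Of these 15, 14 were also called lower at 6 d than at 1 h in both regions, again with all 3 members (0.101% of genes tested). Over 26 alternatives, added after the data were seen, the first count ran from 10 to 44 and the second from 10 to 35. Without dHC 1 h pool 1, dHC 1 h pool 3 or dHC naive pool 1, the first held 2 of the 3 members, at totals of 10, 12 and 12, because Nr4a3 was no longer called in dHC, and the second held 2 of 3 without any of these or without dHC 6 d pool 1. All 3 members were in the first count in the other 23 alternatives.

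**Figure D3:**
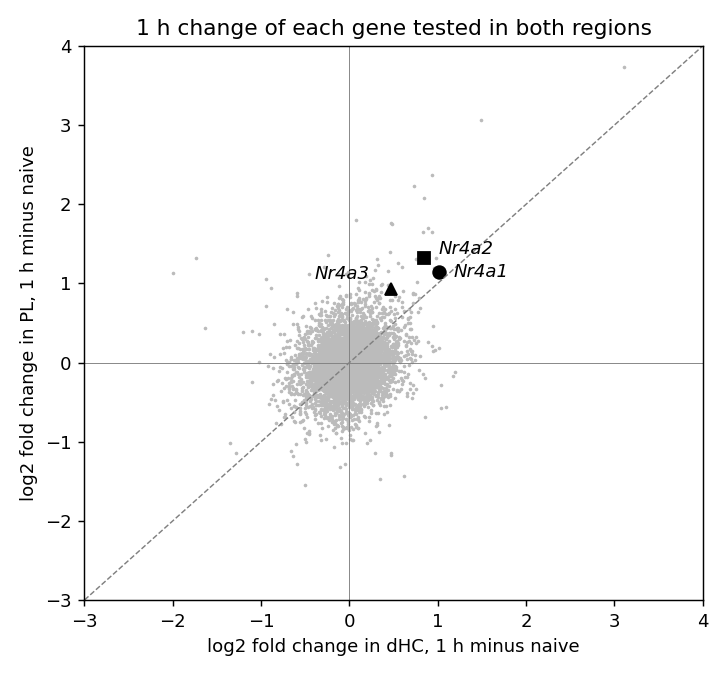
Log2 fold change at 1 h against naive for the 13905 genes tested in both regions, in dHC (horizontal axis) and PL (vertical axis); grey points are genes, black symbols the Nr4a genes, and the dashed line marks equal change. Nr4a1 lies at 1.02 in dHC and 1.15 in PL, Nr4a2 at 0.84 and 1.32, and Nr4a3 at 0.47 and 0.93, all on the PL side of the line.

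The second comparison asked whether the change was still present 6 d after training. At that time 0 of the 3 genes differed from naive rats by the calls of edgeR, DESeq2 or limma voom, in dHC or in PL, and 0 had an unadjusted p under 0.05 with any of the 3 tools. The lowest unadjusted edgeR p was 0.271 in dHC and 0.115 in PL. Without dHC 6 d pool 1, Nr4a3 in dHC had a log2 difference of 0.18 (edgeR unadjusted p = 0.0246, adjusted p = 0.577). Over all genes tested edgeR called 0% in both regions, with 804 genes in dHC (5.62%) and 497 in PL (3.47%) at an unadjusted p under 0.05. The number of genes called with DESeq2 was 1 for dHC and 0 for PL, and with limma voom it was 0 for both.

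In dHC, Nr4a1 averaged 41.9 ± 1.32 CPM at 6 d and 42.0 ± 5.32 CPM in naive rats, a log2 difference of −0.00 with a 95% interval from −0.22 to 0.22. Nr4a2 averaged 35.9 ± 0.810 and 33.2 ± 1.43 CPM in the same groups, a difference of 0.11 with an interval from −0.10 to 0.33. All 3 of its 6 d pools in dHC lay above all naive pools, as they did for 4.73% of genes, but the difference did not pass (edgeR adjusted p = 0.94). Nr4a3 averaged 80.8 ± 9.89 CPM at 6 d and 75.9 ± 5.66 CPM in naive dHC, a difference of 0.09 with an interval from −0.08 to 0.27.

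In PL, the 6 d level of Nr4a1 was 64.4 ± 3.15 CPM, against 70.1 ± 4.34 CPM in naive rats, a log2 difference of −0.11 with an interval from −0.26 to 0.03. Nr4a2 was at 11.3 ± 1.11 CPM at 6 d and 10.4 ± 1.61 CPM in naive PL, a difference of 0.12 with an interval from −0.17 to 0.41. Nr4a3 was at 44.4 ± 5.28 CPM at 6 d and 47.7 ± 7.13 CPM in naive PL, a difference of −0.09 with an interval from −0.30 to 0.11. The 95% intervals of all 3 genes in both regions stayed below the log2 fold changes of the same gene and region at 1 h, which ran from 0.47 to 1.32, both comparisons sharing the naive pools.

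Compared directly with 1 h, all 3 genes were lower at 6 d. In dHC 3 of 3 were called lower, where 0.699% of genes were, and in PL 3 of 3, where 1.05% were. All 6 d pools lay below all 1 h pools for each of the 3 genes, as they did for 9.52% of genes in dHC and 10.1% in PL. The log2 change from 1 h to 6 d in dHC was −1.02 for Nr4a1 (SE 0.10, edgeR adjusted p = 1.39e-05), −0.73 for Nr4a2 (SE 0.09, edgeR adjusted p = 0.000635) and −0.37 for Nr4a3 (SE 0.08, edgeR adjusted p = 0.026). Without 1 h pool 1 (edgeR adjusted p = 0.127), 1 h pool 3 (adjusted p = 0.154) or 6 d pool 1 (adjusted p = 0.0617), Nr4a3 in dHC no longer passed, the 17 alternatives spanning adjusted p of 6.27e-05 to 0.154. In PL the changes were −1.26 for Nr4a1 (SE 0.07, edgeR adjusted p = 1.32e-11), −1.20 for Nr4a2 (SE 0.12, edgeR adjusted p = 2.22e-06) and −1.02 for Nr4a3 (SE 0.09, edgeR adjusted p = 3.54e-07). This comparison uses the same 1 h pools as the comparison with naive rats. All dHC libraries at 6 d were also shallower than all at 1 h, with 7921311 to 8806419 gene counts against 8914752 to 9136114. In PL the ranges overlapped. The part of depth in the dHC fall was not tested beyond the scaling to library size.

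The regions were compared next within each condition, in a fit of all 18 libraries. Nr4a1 was lower in dHC than in PL, while Nr4a2 and Nr4a3 were higher in dHC, and these directions were the same in naive, 1 h and 6 d rats. In naive rats Nr4a2 was 3.19-fold higher in dHC, a log2 difference of 1.67 (SE 0.12, edgeR adjusted p = 5.52e-12), and Nr4a3 1.59-fold higher, a difference of 0.67 (SE 0.10, edgeR adjusted p = 2.34e-06), where 22.9% of 14784 genes were called higher. Nr4a1 differed by −0.74 (SE 0.09, edgeR adjusted p = 1.09e-07), where 23.4% of genes were called lower. Pools of the regions did not overlap for any of the 3 genes, where 26.9% of genes had all naive dHC pools higher and 27.4% had them all lower. Since 46.3% of all genes were called between naive regions, a regional difference was common, and the family members took both signs.

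At 1 h the log2 difference dHC minus PL was −0.86 for Nr4a1 (SE 0.08, edgeR adjusted p = 7.8e-10) and 1.20 for Nr4a2 (SE 0.10, edgeR adjusted p = 8.88e-11), where 24% of genes were called lower and 23.9% higher in dHC. For Nr4a3 it was 0.22 (SE 0.09, edgeR adjusted p = 0.0496), at the threshold, and this call was lost in 11 of 24 alternatives, with adjusted p between 0.0108 and 0.174. Those 11 left out any 1 of the dHC 1 h pools, PL 1 h pool 1 or 2, dHC naive pool 3 or PL naive pool 2, or used DESeq2, RLE scaling, a pool block or a covariate. At 6 d the differences were −0.62 for Nr4a1 (SE 0.09, edgeR adjusted p = 2.39e-06), 1.68 for Nr4a2 (SE 0.12, edgeR adjusted p = 4.14e-12) and 0.86 for Nr4a3 (SE 0.10, edgeR adjusted p = 3.88e-08), where 22.8% of genes were called lower and 23% higher. Pools of dHC and PL did not overlap for any of the 3 genes at 1 h, where 28.6% of genes lay higher and 28.9% lower without overlap, or at 6 d, where 25.4% lay higher and 25.3% lower.

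**Figure D4:**
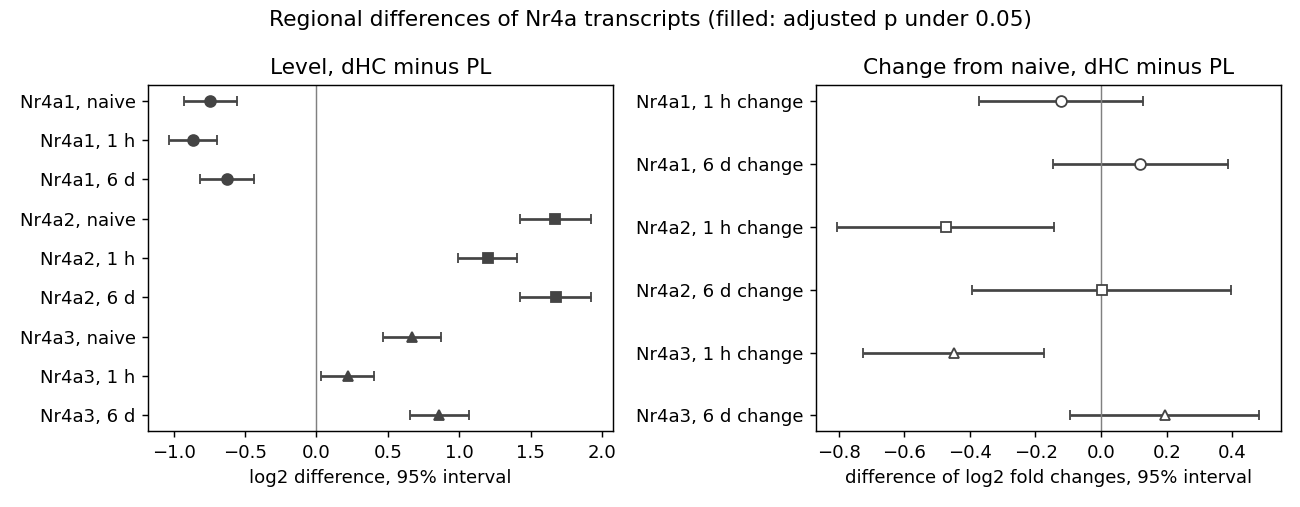
Left, log2 difference in level between dHC and PL for each Nr4a gene in naive rats, at 1 h and at 6 d; right, difference between the regions in the log2 fold change from naive, dHC minus PL; bars are 95% intervals and filled symbols had an adjusted p under 0.05. Nr4a1 lies between −0.86 and −0.62 on the left and Nr4a2 between 1.20 and 1.68, and no symbol on the right is filled.

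Whether the size of the 1 h change itself differed between the regions was tested with an interaction term. The change was smaller in dHC than in PL for Nr4a2, with a difference of −0.47 (95% interval −0.80 to −0.14, unadjusted p = 0.00681), and for Nr4a3, with −0.45 (95% interval −0.73 to −0.17, unadjusted p = 0.00246). Neither passed over all genes (edgeR adjusted p = 0.488 for Nr4a2 and 0.344 for Nr4a3). For Nr4a1 the difference was −0.12 (95% interval −0.37 to 0.13, edgeR adjusted p = 0.854). edgeR thus called 0 of the 3 genes, as did DESeq2 and limma voom, where edgeR called 0.0947% of all genes, although 2 of the 3 had an unadjusted p under 0.05 with each tool, as 7.08% of genes had with edgeR. Without a filter on low counts the Nr4a3 difference was −0.46 and passed (edgeR adjusted p = 0.0102), while the 24 alternatives together gave 0.0102 to 0.665. Over all genes that setting called 117 for this difference, where the reported fit called 14. For the 6 d change the differences between regions were 0.12 for Nr4a1 (95% interval −0.15 to 0.39), 0.00 for Nr4a2 (−0.39 to 0.39) and 0.19 for Nr4a3 (−0.09 to 0.48). None of these 3 passed with edgeR, DESeq2 or limma voom, none had an unadjusted p under 0.05 with these tools, and 0% of all genes were called by edgeR, with 558 (3.77%) at an unadjusted p under 0.05. With dHC 6 d pool 1 or PL 6 d pool 1 left out, 1 of the 3 genes had an unadjusted edgeR p under 0.05 (0.0446 and 0.0473), and 0 were called.

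The 6 groups could also be ordered by level, with neighbours tested in the same 18-library fit. The neighbours were picked by sorting these same group means. Steps that cross both region and condition were not run through the alternatives, and the share of all genes called for them was not computed. Between naive regions alone, 46.3% of genes were called. For Nr4a1 the order from high to low was PL 1 h, dHC 1 h, PL naive, PL 6 d, dHC naive and dHC 6 d. PL naive and PL 6 d did not differ beyond their spread, nor did dHC naive and dHC 6 d. The step from dHC 1 h to PL naive was small, 0.28 on the log2 scale (edgeR adjusted p = 0.00813), and their pools overlapped. For Nr4a2 all dHC groups stood above all PL groups, in the order dHC 1 h, dHC 6 d, dHC naive, PL 1 h, PL 6 d and PL naive. The step from dHC naive to PL 1 h was 0.36 (edgeR adjusted p = 0.00683), and the step between the naive and 6 d neighbours did not pass in either region. For Nr4a3 the order was dHC 1 h, PL 1 h, dHC 6 d, dHC naive, PL naive and PL 6 d. Its top step, from dHC 1 h to PL 1 h, was the call at the threshold (edgeR adjusted p = 0.0496) that was lost in 11 of 24 alternatives. The steps from dHC 6 d to dHC naive (edgeR adjusted p = 0.954) and from PL naive to PL 6 d (edgeR adjusted p = 0.998) did not pass. PL 1 h did not differ from dHC 6 d beyond its spread (log2 difference 0.16, edgeR adjusted p = 0.175), with 90.2 ± 6.33 CPM in PL at 1 h beside 80.8 ± 9.89 CPM in dHC at 6 d.

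Whether the members changed by unequal amounts was asked of the log2 ratio of their counts within each library, in which library size and gene length cancel when groups are compared. The ratio of Nr4a1 to Nr4a3 was −0.23, −0.52 and −0.19 in dHC pools at 1 h, against −0.96, −0.86 and −0.75 in naive dHC, with no overlap. For other gene pairs, the share whose ratios did not overlap was not computed. In PL pools the Nr4a1 to Nr4a3 ratio was 0.80, 0.84 and 0.69 at 1 h, against 0.42, 0.61 and 0.65 in naive PL. Again there was no overlap, but less distance. The mean shift was 0.38 over both regions, 0.54 in dHC and 0.21 in PL (p = 0.005, the smallest that 400 arrangements within regions allow, adjusted p = 0.015 over 3 pairs, two-sided exact permutation test). It did not pass in 3 of 16 alternatives, among them dHC on its own (adjusted p = 0.1, exact permutation test) and PL on its own (adjusted p = 0.3, exact permutation test), where 3 pools against 3 cannot reach the threshold, and adjusted p ran from 0.0075 to 0.3 over the 16.

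The ratio of Nr4a2 to Nr4a3 was −0.78, −1.05 and −0.65 in dHC at 1 h, against −1.14, −1.23 and −1.20 in naive dHC. In PL it was −1.84, −1.78 and −1.78 at 1 h, against −2.46, −2.32 and −1.78 in naive rats, where naive pool 3 lay among the 1 h pools. The mean shift was 0.37 (p = 0.015, adjusted p = 0.0225 over 3 pairs, two-sided exact permutation test). Its adjusted p was 0.0525 without any 1 of the dHC naive pools or without PL 1 h pool 2, and the 16 alternatives gave 0.0075 to 0.4. The ratio of Nr4a1 to Nr4a2 shifted by 0.00 on average (p = 0.975, adjusted p = 0.975, two-sided exact permutation test), with 0.18 in dHC and −0.17 in PL. Shifts of opposite sign cancel in this mean, so the test cannot show that the ratio was unchanged within a region. In dHC it was 0.54, 0.53 and 0.47 at 1 h, against 0.17, 0.36 and 0.45 in naive rats, without overlap. In PL it was 2.64, 2.62 and 2.48 at 1 h, against 2.88, 2.94 and 2.44 in naive rats, with overlap.

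The ratios also stood at different levels in the regions. The log2 ratio of Nr4a1 to Nr4a2 averaged 0.33 ± 0.14 in naive dHC, 0.51 ± 0.04 in dHC at 1 h and 0.22 ± 0.08 in dHC at 6 d (SD, n = 3 each), and in PL 2.75 ± 0.27 in naive rats, 2.58 ± 0.09 at 1 h and 2.51 ± 0.16 at 6 d. Nr4a1 to Nr4a3 was negative in each dHC library and positive in each PL library, whatever the condition. Nr4a2 to Nr4a3 averaged −1.19 ± 0.05 in naive dHC, −0.83 ± 0.21 in dHC at 1 h and −1.16 ± 0.20 in dHC at 6 d, and in PL −2.19 ± 0.36 in naive rats, −1.80 ± 0.03 at 1 h and −1.97 ± 0.19 at 6 d. These differences between regions in the ratios were not tested beyond the regional tests of each gene above.

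**Figure D5:**
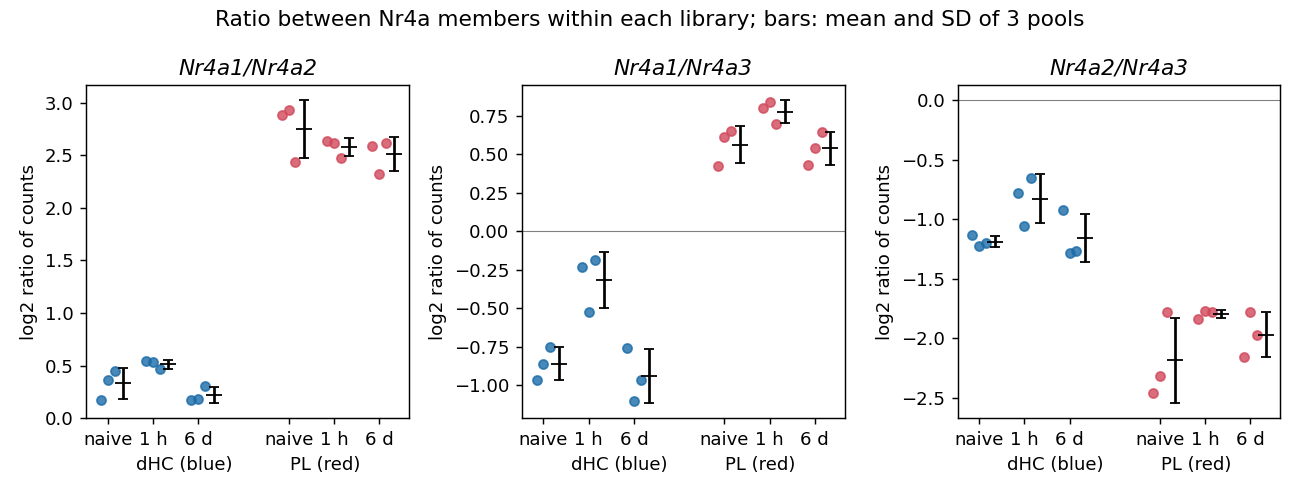
Log2 ratio of the counts of 2 Nr4a genes within each library, for dHC (blue) and PL (red), in naive rats and at 1 h and 6 d after training; points are the 3 pools in order, bars the mean with its SD. Relative to naive rats, both ratios over Nr4a3 were shifted up at 1 h by 0.38 and 0.37 on average. Nr4a1 to Nr4a2 shifted by 0.18 in dHC and −0.17 in PL, beside a larger difference between the regions.

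Among 14299 other genes with a mean of at least 1 CPM, those whose pattern was most like the family were found by the mean Pearson correlation with the 3 members, over the 18 libraries after removing the mean of each region. ENSRNOG00000023896 had the highest mean r of 0.953, with 0.973 for Nr4a1, 0.948 for Nr4a2 and 0.939 for Nr4a3. It averaged 72.8 ± 3.39 CPM in dHC at 1 h and 49.7 ± 6.14 CPM in naive dHC, and 57.1 ± 3.48 CPM in PL at 1 h and 33.0 ± 1.51 CPM in naive PL (SD, n = 3 each). ENSRNOG00000019422 followed with a mean r of 0.951, with 0.986 for Nr4a1, 0.929 for Nr4a2 and 0.938 for Nr4a3. It averaged 157.4 ± 24.0 CPM in dHC at 1 h and 81.2 ± 3.93 CPM in naive dHC, and 358 ± 18.1 CPM in PL at 1 h and 156.1 ± 21.2 CPM in naive PL. Like Nr4a1, this gene was lower in dHC than in PL, whereas ENSRNOG00000023896 was higher in dHC, as were Nr4a2 and Nr4a3. Both are given by identifier, because the files do not pair it with a name. These correlations describe 18 libraries that share the rise at 1 h, and they carry no p.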

How the data were processed

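The authors deposited 1 table per library, holding raw read counts for each Ensembl gene. A further 5 rows, for reads that no gene received, made up 63.3% to 68.3% of a library and entered neither library sizes nor tests. Most of these were reads that did not align, 42.0% to 51.8% of a library, and 10.1% to 13.6% lay outside gene models. Per the submitters' processing notes, the assembly was Rnor_6.0 and Picard 1.126, bedtools 2.17.0 and DESeq2 were used, with no role named. How reads were aligned and counted, with which gene models and strand setting, is not given in the sources used here. Ambiguous reads had a row of their own (0.599% to 0.706% of reads), and whether reads of an antisense partner are in a gene's count was not tested. The 3 receptors are paralogs with a conserved DNA-binding region, and reads with more than 1 alignment had a row of their own (5.56% to 7.18% of reads). Per the labels' protocols, 200 ng of total RNA per pool went into stranded poly(A) libraries (12 PCR cycles, paired reads of 150 nt).

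Counts were tested in R 4.3.3 with edgeR 4.0.16 (TMM, filterByExpr, glmQLFit, glmQLFTest, two-sided) across all genes, using the 9 libraries of a region or all 18 between regions. SEs and 95% intervals come from the F statistic. Log2 ratios used counts plus 0.5. Alternatives were DESeq2 1.42.0, voom of limma 3.58.1, RLE scaling, no filter, a covariate, other sets of libraries, blocks and each library left out. A limit of 3 counts equals 0.326 to 0.402 CPM, for counting error only, since PCR copies are not told apart. The labels call the pools independent and name no batch or day. As a check for a library deposited more than once, replicate pools of a group were compared with counting noise over genes with 10 or more counts, and no pair was within it (chi-square per degree of freedom 1.67 to 4.98). Each pool was counted as 1 sample.

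The genes named are the 3 receptors and the 2 identifiers most correlated with them. The members, lists and tests were chosen with earlier results of these data known. Lists of pathway and cell type genes, and a check of each region against its markers, were not analysed here, because the gene identifiers have no names.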

Additional observations from a re-analysis of the deposited data

How the results depend on the processing

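The counts that follow cover tests within a region, between regions in 1 condition, and of the regional difference in change. They leave out the level-order steps that cross both region and condition, which were given no alternatives. Of 21 results in which an Nr4a gene was called, 18 were called in every alternative, all with the same sign. Of the 12 that were not called, 11 remained so. The exceptions were Nr4a3 in dHC at 1 h against naive, whose log2 fold change ran from 0.41 to 0.52 with each library left out, Nr4a3 in dHC at 6 d against 1 h (−0.44 to −0.28), and Nr4a3 in dHC against PL at 1 h (0.18 to 0.27). The last was also not called with DESeq2 (0.22, adjusted p = 0.0636), RLE scaling (0.22, edgeR adjusted p = 0.0509), the share of reads outside gene models as covariate (0.21, edgeR adjusted p = 0.0523) and the pool as a replicate block shared by both regions (0.22, edgeR adjusted p = 0.0839). The regional difference in the 1 h change of Nr4a3 was called in 1 of 24 alternatives, with all genes tested whatever their counts (−0.46, edgeR adjusted p = 0.0102). Signs turned for values near 0. For Nr4a1 in dHC at 6 d against naive the value was 0.00695 with limma voom, 0.00190 with the replicate block and −0.108 to 0.0609 with a library left out. For Nr4a3 in PL at 6 d against naive it was −0.190 to 0.0266 with a library left out. For the regional difference in the 6 d change of Nr4a2 it was −0.00153 with DESeq2, −0.00353 with limma voom, −0.00708 without a filter, −0.00106 with RLE scaling and −0.122 to 0.0905 with a library left out.

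The mean shift of the Nr4a1 to Nr4a2 ratio was −0.17 in PL on its own and −0.0740 to 0.0511 with a library left out. Within 1 region, an exact permutation of 3 pools against 3 cannot go below p = 0.1. The shifts were 0.54 in dHC and 0.21 in PL for Nr4a1 to Nr4a3, and 0.36 and 0.39 for Nr4a2 to Nr4a3. With a library left out, the means over both regions were 0.34 to 0.43 for Nr4a1 to Nr4a3 and 0.31 to 0.48 for Nr4a2 to Nr4a3. Pairing the pools by number left 0.38 and 0.37 with an adjusted p of 0.0938 each (exact exchange of signs within 6 pairs, which cannot go below p = 0.0312 before adjustment).

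Whether pools of 1 number belong together is not given in the labels and was not settled by the data. The number was not used for pairing, since the labels call the pools independent. Of the same-numbered pairs, 2 of 9 in dHC, 1 of 9 in PL and 0 of 9 across regions had a correlation over 0.1. In dHC the deviations of same-numbered pools from their group means correlated between 0.00180 and 0.205, all positive, and those of other pools between −0.166 and 0.104. The ranges were −0.0604 to 0.166 and −0.144 to 0.132 in PL, and −0.122 to 0.0390 and −0.0899 to 0.116 across regions, and 1 of 9 libraries in each region correlated best with its own number in both other groups. With the replicate number as a block, the calls of the Nr4a genes within a region stayed as they were, while over all genes the calls at 1 h against naive numbered 150 in dHC and 312 in PL, where the fits without the block gave 32 and 206. Over all alternatives the number of genes called at 1 h against naive ran from 14 to 275 in dHC and from 87 to 574 in PL, at 6 d against 1 h from 18 to 623 (158 in the reported fit) and from 149 to 675 (317), at 6 d against naive from 0 to 31 and from 0 to 8 (0 each), and for the regional difference of the 1 h change from 6 to 117 (14) and of the 6 d change from 0 to 12 (0). The cause of these shifts was not tested.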
